A study of Mus musculus with 32 samples.

Results

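Control 3T3-L1 cells at day 3 of adipogenic induction (4 libraries) were compared with the same cells at day 0 (4 libraries). These 8 libraries were chosen by their labels, as the day 0 and day 3 libraries that carry a scramble short hairpin RNA (shCtrl, genotype label WT), and are 8 of the 32 RNA-seq libraries of the series. 3T3-L1 is a mouse fibroblast-like preadipocyte line, grown here in DMEM with 10% fetal bovine serum. Day 0 cells were 2 days past confluence and had not been induced. Day 3 cells had been kept in the same medium with 1 µM dexamethasone, 0.5 mM isobutylmethylxanthine (IBMX) and 167 nM insulin. All day 3 libraries had this cocktail and no day 0 library did, so the cocktail and the added days in culture cannot be told apart. At day 3 that medium was replaced by one with insulin alone, and the labels do not say whether RNA was taken before or after the change. The control libraries of days 7 and 11 were also used, for each gene's later level and in the estimate of the spread between libraries. In 8 further libraries of days 0 and 3 Zbtb9 was targeted by either of 2 shRNAs, with 2 libraries for each shRNA and day. The knockdown libraries of days 7 and 11 entered only the fits of the knockdown arm and of both arms.

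Each component of the cocktail has a known receptor or enzyme target. Dexamethasone binds the glucocorticoid receptor, a nuclear receptor that switches on genes carrying its response element and represses many inflammatory genes. IBMX blocks the phosphodiesterases that break down cyclic AMP, so that protein kinase A and the factor CREB become active. Insulin at this dose acts through the insulin and IGF-1 receptors. In the textbook order of adipogenesis, Cebpb and Cebpd respond first, growth-arrested cells then divide again for a short time, and Cebpa and Pparg follow and switch on the genes of lipid storage.

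The 8 libraries held 24432222 to 29799054 reads in genes, rebuilt from the deposited log2 values. Levels below are these rebuilt reads after scaling by a size factor for each library, called normalized reads, and are not corrected for gene length, so they are compared only within a gene. Differences and tests use the deposited log2 values, which are drawn towards each gene's mean most strongly where reads are few. A log2 difference of a rare gene is therefore smaller than the ratio of its normalized reads. The labels call the replicates biological and say nothing about separate cultures, so p-values measure only the spread between these libraries.

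Of 13421 genes tested, 10274 were called at a limma adjusted p under 0.05, which is 76.6% of them. Calls were balanced, with 5143 genes higher at day 3 (38.3%) and 5131 lower (38.2%). A call alone therefore says little about a gene. Called genes that differed by at least 1 on the log2 scale, which is 2-fold, numbered 736 higher (5.48% of genes tested) and 1189 lower (8.86%). These 1925 genes became 2896 on log2 of the rebuilt normalized reads plus 1, and 2982 with voom on the rebuilt reads. The median difference over all genes was 0.002. With every library rescaled to the same total, that median moved to -0.125 and the calls became 3991 higher and 6343 lower, so that 38.6% of calls were higher in place of 50.1%. Differences below about that size depend on the scaling.

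The gene that rose most was Fam107a, a small actin-associated protein known as a glucocorticoid target, with a log2 difference of 7.19 (SE 0.07, limma adjusted p = 6.95e-39). It had 0, 1.01, 0.938 and 0.8289 normalized reads in the 4 day 0 libraries and 3068, 3422, 3276 and 3501 in the 4 day 3 libraries. The day 0 libraries held 3 reads in all, and the ratio of the reads was 4770, with a 95% counting interval of 1680 to 23800. The next largest rises were those of Rgs2 (6.05), Zbtb16 (5.82), the serpin Serpina3k (5.79), the haemoglobin-binding protein haptoglobin, Hp (5.64), the fatty acid binding protein Fabp4 (5.51), Fam110c (5.50), the glutamine synthetase Glul (5.33), the resistin-like protein Retnla (5.32), the fatty acid transporter Cd36 (5.20), Ifi207 (5.16) and the chemokine Cxcl13 (5.14). Retnla and Cxcl13 had no read in any day 0 library. Against a floor of 3 reads per library they were at least 212-fold and at least 236-fold higher at day 3. Their later levels differed, since Retnla was back to 23.5 normalized reads at day 7 while Cxcl13 stood at 375.

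Among the 12 largest falls, Ifit3 (-6.43), Oasl2 (-6.06), Ifit3b (-5.95), Ifit1 (-5.35), Usp18 (-4.93) and Ifi27l2a (-4.82) are antiviral genes induced by interferon. Ogn (-6.06) and Fmod (-5.67) are small leucine-rich proteoglycans of the collagen matrix, Acta2 (-6.03) and Myl9 (-5.77) are the smooth muscle actin and a myosin light chain, and Sfrp2 (-4.85) is a secreted Wnt modulator. The remaining gene was the tight junction gene Cldn19 (-4.82), whose rebuilt reads were not whole in every library.

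**Figure D1:**
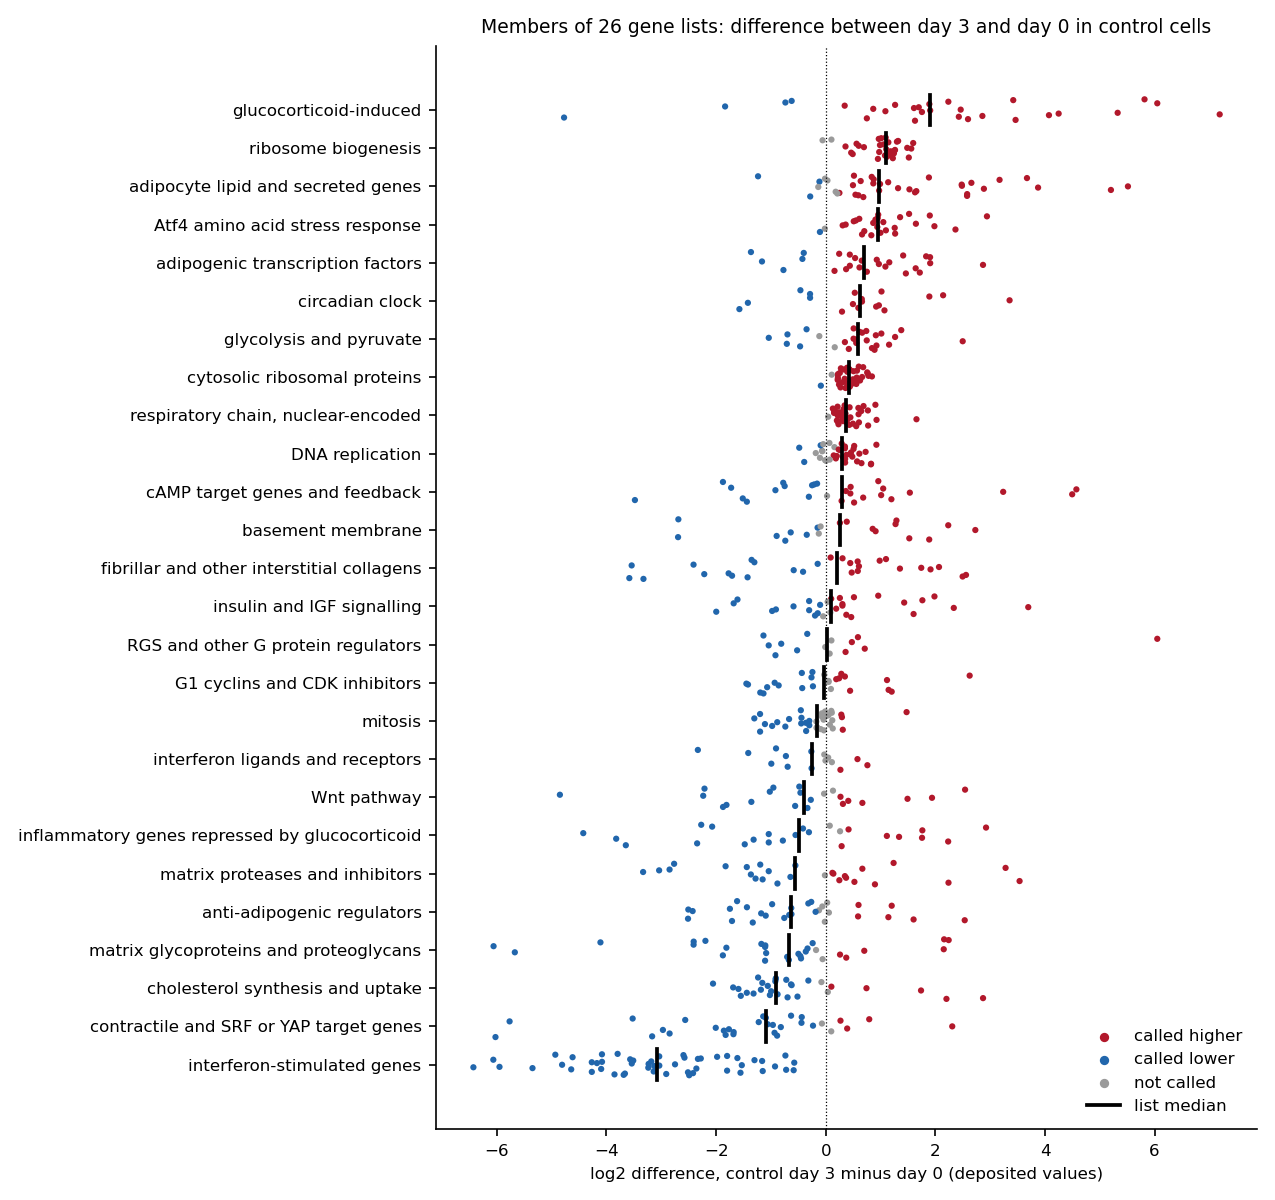
Log2 difference between control day 3 and day 0 (x axis, deposited values) for the tested members of 26 gene lists, one point per gene, ordered by the list median (black bar). Red and blue points were called higher and lower by limma, and grey points were not called. All 52 tested interferon-stimulated genes lie below 0, and 24 of 28 glucocorticoid-induced genes lie above it.

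Genes known to be induced by glucocorticoid rose as a group. Of the 30 listed genes 28 were tested, 24 were called higher and 4 lower, and 21 rose by at least 1 where 5.48% of all genes did. The list median was 1.90 against 0.002 over all genes. Fkbp5, the immunophilin that feeds back on the glucocorticoid receptor, had 1303, 1281, 1152 and 1278 normalized reads at day 0 and 26490, 26160, 26170 and 26550 at day 3. The groups did not overlap, and the rise was 21-fold (log2 difference 4.25, SE 0.04, limma adjusted p = 2.99e-41). Tsc22d3, the anti-inflammatory leucine zipper protein GILZ, rose from 1185 ± 68.3 to 13800 ± 525 normalized reads (mean ± SD, n = 4).

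Zbtb16, a zinc finger repressor also called PLZF, went from 4.69 to 16.2 normalized reads at day 0 to 1848 to 2003 at day 3, a 188-fold rise. Glul rose 46.3-fold, from 568 ± 18.01 to 26250 ± 967 normalized reads. Per1 and Klf9, direct targets of the receptor in many tissues, rose 3.92-fold and 3.93-fold, and Klf15, another such target, rose from 5.63 ± 3.70 to 30.8 ± 2.47 normalized reads. The receptor gene itself, Nr3c1, fell from 5347 ± 142 to 3946 ± 238 normalized reads (log2 difference -0.42, SE 0.04, limma adjusted p = 4.6e-12). The 4 listed genes called lower were the small heat shock protein gene Cryab, which fell 37.8-fold, the calcium sensor Ncald (-1.84), the kinase Sgk1 (-0.74) and the transglutaminase Tgm2 (-0.62). Tgm2 is outside the rule for naming genes and was chosen after its value was seen.

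The glucocorticoid response element, written as GNACA and TGTNC with 3 bases between them and read on both strands, was searched in the 250 bases before each RefSeq gene start (GRCm38.p6). Of 23 listed genes with a promoter there, 3 held it (13.0%), beside 0.4% of all 27025 genes. Those 3 stretches are shown because they include the gene that rose most, with the element in capitals. That of Fam107a lies at chr14:8309860-8309922 on the minus strand, that of Sgk1 at chr10:21993677-21993739 on the plus strand and that of Mt1 at chr8:94178970-94179032 on the plus strand. The first 2 lie inside the genes and outside annotated exons in GENCODE, before a downstream start, and the third lies outside any gene.
Fam107a: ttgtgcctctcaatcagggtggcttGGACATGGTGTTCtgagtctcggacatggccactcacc
Sgk1: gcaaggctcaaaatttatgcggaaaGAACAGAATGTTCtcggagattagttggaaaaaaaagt
Mt1: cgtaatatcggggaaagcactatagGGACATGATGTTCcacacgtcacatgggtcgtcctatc
The 3 genes did not move alike. Fam107a and the metallothionein Mt1 rose, the latter from 5581 to 6451 normalized reads at day 0 to 17230 to 19690 at day 3. Sgk1 fell from 2466 to 2695 normalized reads to 1498 to 1617. Sgk1 and Mt1 are outside the naming rule and are described because of the match.

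The cyclic AMP list holds target genes and also the pathway's own enzymes, kinase subunits, anchors and inhibitors. Of 27 tested, 14 were called higher, where 38.3% of all genes were, and 12 lower, where 38.2% were. Of these, 7 rose and 5 fell by at least 1, and the list median was 0.29, or 0.16 under equal totals and 0.49 on log2 of rebuilt normalized reads plus 1. Nr4a1, an orphan nuclear receptor and immediate target of CREB, had 679, 787, 630 and 690 normalized reads at day 0 and 17640, 16980, 18070 and 17310 at day 3, a 25.1-fold rise (log2 difference 4.50, SE 0.05, limma adjusted p = 7.76e-37). The cyclic AMP phosphodiesterase Pde4b, which degrades the second messenger, rose 27.2-fold, from 352 ± 22.9 to 9572 ± 133 normalized reads. Pde4d rose 2.18-fold and the CREB-family repressor Crem 1.78-fold.

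Other members of the pathway fell. The scaffold that anchors protein kinase A at the membrane, Akap12, fell 12.7-fold, from 3954 ± 243 to 311 ± 33.4 normalized reads. Rapgef3, the cyclic AMP-activated exchange factor Epac1, fell from 1203 ± 38.4 to 297 ± 21.7. Pde3b, the phosphodiesterase that insulin activates in adipocytes, had 13.3 to 36.2 normalized reads at day 0 and 30.8 to 37.9 at day 3. Those groups overlapped, and its call (log2 difference 0.37, limma adjusted p = 0.016) was lost with libraries rescaled to equal totals (adjusted p = 0.11) and without control day 0 replicate 4 (adjusted p = 0.13). The cyclic AMP response element TGACGTCA, searched on both strands, stood before 2 of 25 listed genes with a promoter (8.0%) and before 1.8% of all genes.

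Rgs2, which shortens signalling by G proteins of the Gq class and is a target of both glucocorticoid and cyclic AMP, had 374, 404, 388 and 428 normalized reads at day 0 and 31350, 31490, 31290 and 30440 at day 3. It rose 78.2-fold (log2 difference 6.05, SE 0.07, limma adjusted p = 1.16e-21). Of 14 tested regulators of G protein signalling, 5 were called higher and 6 lower, shares near the 38.3% and 38.2% of all genes, and the next largest rise was that of Rgs10 (0.71). Rgs3 (-1.14) and Rgs12 (-1.04) fell.

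**Figure D2:**
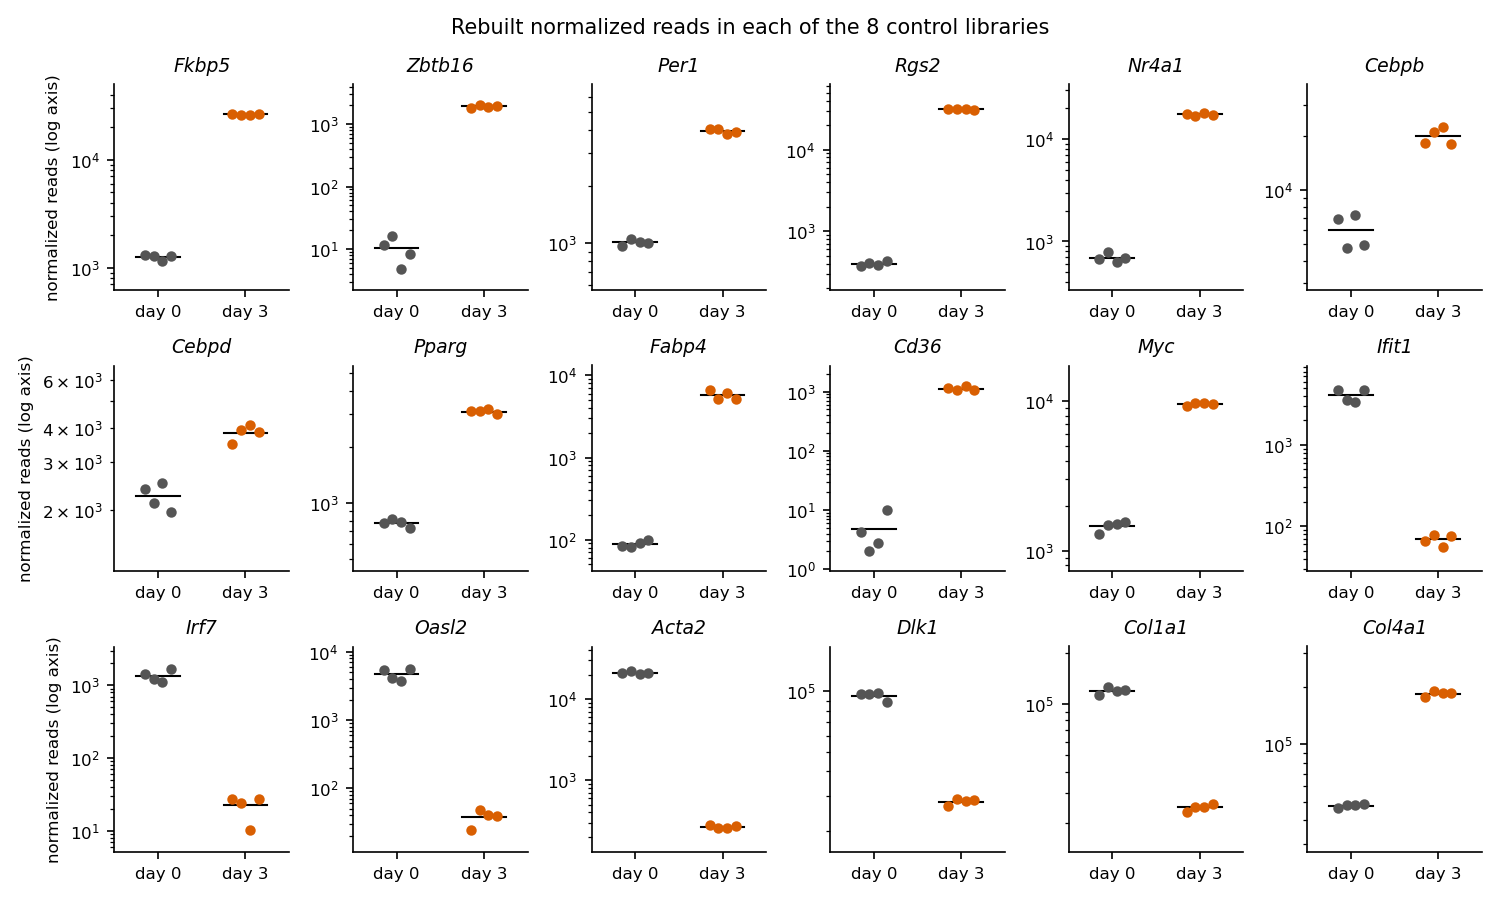
Rebuilt normalized reads (y axis, log scale, its range set for each panel) of 18 genes in each of the 4 day 0 libraries (grey) and 4 day 3 libraries (orange) of control cells, with the group mean as a line. In all 18 genes the groups do not overlap. Ifit1 goes from 3400 to 4756 normalized reads at day 0 to 55.5 to 77.2 at day 3.

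In the insulin and IGF pathway the receptor substrates moved apart. Irs1 fell from 4290 ± 169 to 1278 ± 88.3 normalized reads (log2 difference -1.68, SE 0.05, limma adjusted p = 2.53e-26), while Irs2 rose from 2529 ± 187 to 7056 ± 183 (1.43, SE 0.05, adjusted p = 5.96e-24). 30.9% of the annotated exon bases of Irs1 are shared with another gene model, Gm9747. The inhibitory adaptor Grb14 fell 4.72-fold. The secreted binding proteins Igfbp4 and Igfbp3 rose, Igfbp4 from 1809 ± 56.1 to 25510 ± 374 normalized reads and Igfbp3 5.34-fold, while the ligand Igf1 fell 2.02-fold. Foxo1, the transcription factor that insulin signalling keeps out of the nucleus, rose 3.21-fold.

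The glucose transporters were at different stages. The insulin-responsive Slc2a4 (GLUT4) had 1 read in the 4 day 0 libraries and 26 in the 4 day 3 libraries, a ratio of 32.6 with a counting interval of 5.01 to 1250. The basal transporter Slc2a1 (GLUT1) differed by 0.26, a call that was lost in the fit of all 32 libraries (adjusted p = 0.083), under equal totals (0.22) and on leaving out any 1 of 7 libraries, all but day 3 replicate 1 (adjusted p from 0.051 to 0.078). In all, 15 of 29 tested members were called higher and 11 lower, beside 38.3% and 38.2% of all genes, with a median of 0.10 that turned to -0.03 under equal totals.

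The adipogenic transcription factors rose, with 21 of 26 tested members called higher and 5 lower, beside 38.3% and 38.2% of all genes. Of the 21, 10 rose by at least 1, where 5.48% of all genes did, and the list median was 0.70. Cebpb, the early C/EBP factor, had 6852, 4739, 7212 and 4932 normalized reads at day 0 and 18240, 21140, 22500 and 18080 at day 3. It varied more between replicates than most genes and still rose in every library, 3.37-fold on average (log2 difference 1.72, SE 0.17, limma adjusted p = 5.65e-07). Cebpd rose 1.71-fold. Of the exon bases of Cebpb 20.7% are shared with Tmem189, and of those of Cebpd 15% with Spidr. Cebpa rose from 485 ± 78.3 to 1396 ± 25.97 normalized reads, and Pparg, the nuclear receptor that directs fat cell differentiation, from 780 ± 35.4 to 3089 ± 79.1 (log2 difference 1.90, SE 0.04, adjusted p = 3.35e-29).

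Among the Krüppel-like factors Klf5, an activator of Pparg, rose 8.19-fold, from 339 ± 13.9 to 2780 ± 172 normalized reads, and was the largest rise of the list. Klf4, which acts early on Cebpb, differed by only 0.44 at day 3. Nfib (-1.16) and Zfp467 (-1.36), both known as promoters of adipogenesis, fell. Cebpb had lower means after day 3, with 9562 normalized reads at day 7 and 10120 at day 11, while Cebpa stood at 1598 and 813.

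Regulators that hold preadipocytes back fell more often than they rose. Of 29 tested, 18 were called lower and 6 higher, beside 38.2% and 38.3% of all genes. Of the 18, 10 fell by at least 1, where 8.86% of all genes did, and the list median was -0.62. Dlk1 (Pref-1), the membrane protein that marks preadipocytes, had 97170, 96720, 98270 and 88440 normalized reads at day 0 and 26690, 28850, 28140 and 28540 at day 3, a 3.39-fold fall (log2 difference -1.71, SE 0.05, limma adjusted p = 3.77e-23). It was not lost for good, since its mean at day 7 was 86640 normalized reads. Gata2, a repressor of Pparg, fell 7.06-fold and Runx1t1, an inhibitor of C/EBP factors, 6.45-fold. Foxc2 rose 6.66-fold.

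Wnt signalling is known to keep preadipocytes undifferentiated. Of 22 tested genes of the pathway 13 were called lower, where 38.2% of all genes were, and 7 higher, where 38.3% were, with a median of -0.40 that became -0.62 with voom and -0.16 with no filter on low values. Sfrp2 fell 37.8-fold, from 3815 ± 173 to 101 ± 16.8 normalized reads, and the Wnt enhancer Rspo2 12.4-fold. The ligand Wnt4 rose 6.39-fold and the co-receptor Lrp5 4.00-fold. Wnt10b, the ligand best known for blocking adipogenesis, did not enter the test, with 39 reads over the 4 day 0 libraries and 1 over the day 3 libraries, a ratio of 34.1 (counting interval 5.63 to 1350).

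Genes of the fat cell itself had begun to rise. Of 37 tested lipid and secreted-protein genes, 29 were called higher and 3 lower, beside 38.3% and 38.2% of all genes. Of the 29, 17 rose by at least 1, where 5.48% of all genes did, and the list median was 0.98. That median was 1.69 on log2 of the rebuilt normalized reads plus 1 and 1.57 with voom on the rebuilt reads. Fabp4, a fatty acid carrier, had 84.2, 82.0, 91.0 and 97.8 normalized reads at day 0 and 6608, 5198, 6141 and 5161 at day 3, a 65.1-fold rise (log2 difference 5.51, SE 0.10, limma adjusted p = 1.96e-16). Cd36 went from 2.02 to 9.95 normalized reads to 1055 to 1246. Plin1, the droplet coat protein, had 1 read in the day 0 libraries and 734 in the day 3 libraries (ratio 919, interval 154 to 34100), and Cidec, which fuses droplets, went from 4 reads to 601.

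Some of these genes were far below their later levels. Adipoq (adiponectin) had 1 read over the day 0 libraries and 5.32 to 10.6 normalized reads at day 3, against a mean of 1709 at day 7. Plin1 stood at 194 normalized reads at day 3 and 1574 at day 7. Lpl, the lipase that frees fatty acids from lipoproteins, was already at 18690 ± 243 normalized reads at day 0 and at 17270 ± 1449 at day 3. Those groups overlapped, and its call (log2 difference -0.11, limma adjusted p = 0.032) was lost in several fits, among them the one of all 32 libraries (adjusted p = 0.4). Slc27a1, a fatty acid transporter, fell 2.46-fold, and the citrate lyase Acly fell by 0.28. The letters TTGCNNCAA, searched on either strand as a C/EBP motif, were found before none of 29 listed genes with a promoter and before 2.0% of all genes. These letters hold 1 base more in the middle than the palindromic C/EBP site, so they cannot match it. Whether the listed promoters hold C/EBP sites was therefore not tested.

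Day 0 is labelled preadipocyte and day 3 premature adipocyte. The summed level of 8 adipocyte markers was 407 to 462 normalized reads over the day 0 libraries and 7918 to 9716 over the day 3 libraries, with Cfd and Retn at 0 in all day 0 libraries. That of 11 preadipocyte or fibroblast markers fell from 510800 to 529400 down to 244300 to 267100. In bulk RNA fewer cells of a type and less RNA per cell cannot be told apart. Markers of other cell types were also summed. The sum of 8 macrophage markers was 746 to 855 at day 0 and 674 to 752 at day 3, with Itgam at 0 in all day 0 libraries and Ptprc at 0 in all day 3 libraries. Endothelial markers summed to 64.0 to 82.0 and then 16.9 to 40.8, and epithelial and skeletal muscle markers to at most 26.9 in any library. Smooth muscle or pericyte markers summed to 1137 to 1292 and then 726 to 785. Some sums rest on few genes. A mean of 10 or more normalized reads was reached by 2 adipocyte markers at day 0 and 6 at day 3. These counts were 5 and 2 for macrophage, 2 and 0 for endothelial and 1 and 2 for smooth muscle or pericyte markers. The part of other cell types in the results was not tested.

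**Figure D3:**
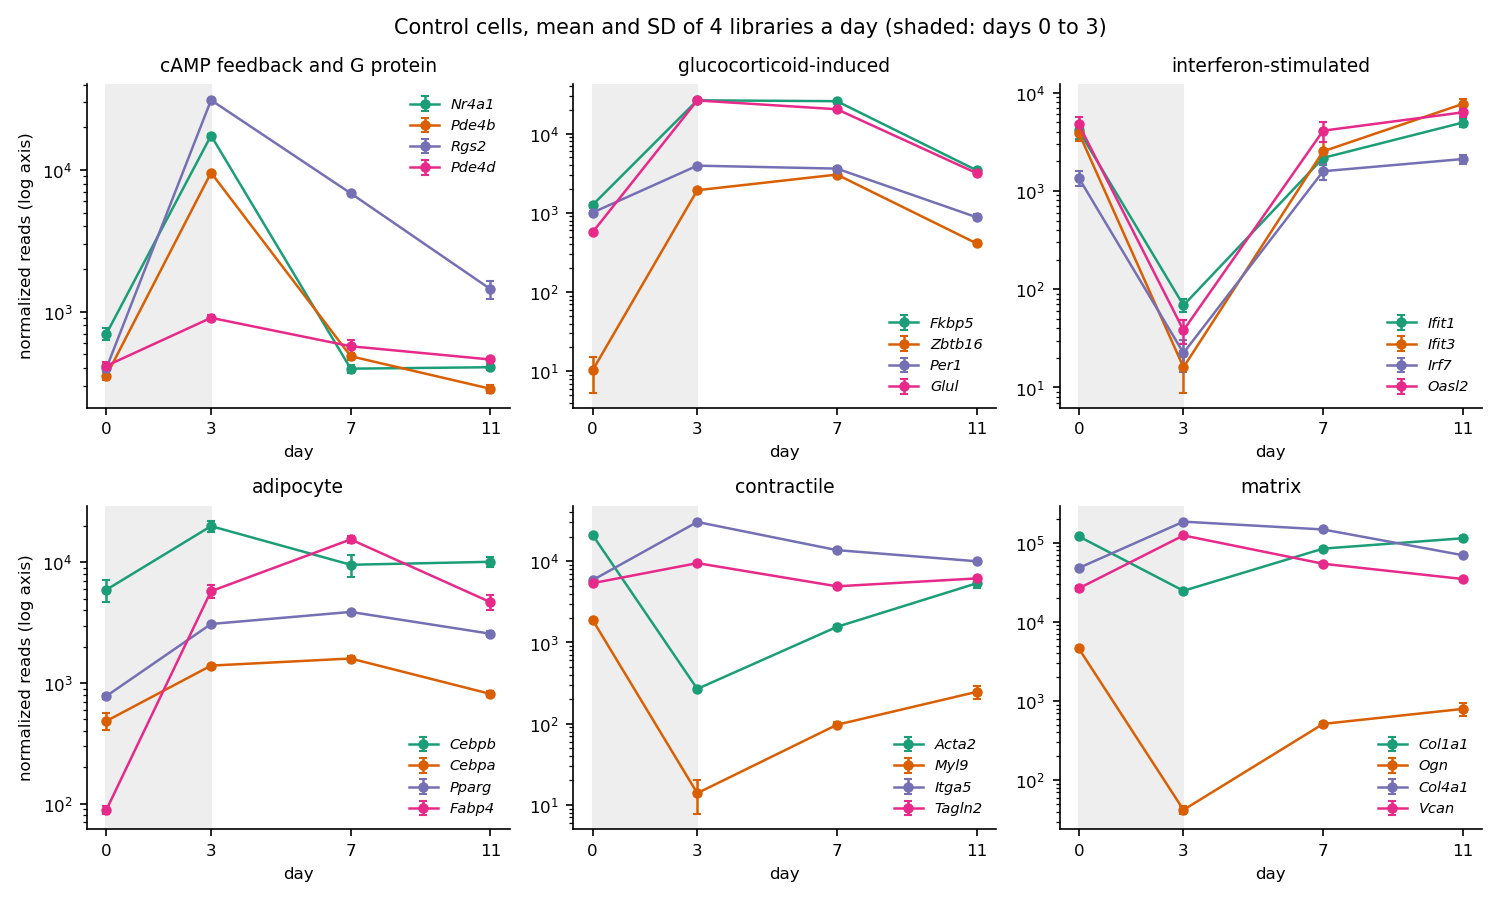
Mean normalized reads (y axis, log scale) with SD of 4 control libraries at days 0, 3, 7 and 11 (x axis) for 4 genes from each of 6 groups, with days 0 to 3 shaded. Nr4a1 and Pde4b peak at day 3, Fkbp5 and Zbtb16 stay high at day 7, and the 4 interferon-stimulated genes are lowest at day 3.

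Genes that were higher at day 3 had different levels at later days. Nr4a1 went from 17500 normalized reads at day 3 to 396 at day 7, and Pde4b from 9572 to 485. Fkbp5 was 26340 at day 3 and 25680 at day 7, and only 3445 at day 11. Zbtb16 rose on to 3041 at day 7, and Per1 held 3617. Rgs2 lay between these patterns, with 31140, 6852 and 1445 normalized reads at days 3, 7 and 11. The cells had been moved from the full cocktail to insulin alone at day 3 and to plain medium at day 7. These levels share the day 3 libraries with the comparison described here and are given as a description, with no test.

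Interferon-stimulated genes fell. All 52 tested members of the list, which was drawn up with earlier results of these data known, were called lower, 47 of them by at least 1, where 8.86% of all genes fell that far, and the list median was -3.08. In each of these 52 genes day 3 had the lowest mean of the 4 days, which was so for 34.2% of all genes tested. Ifi207, an interferon-inducible gene that is not on the list, was among the largest rises. Ifit3, an antiviral protein that binds viral RNA with Ifit1, had 4443, 3472, 3164 and 4575 normalized reads at day 0 and 22.1, 21.2, 14.7 and 6.38 at day 3, a 244-fold fall (log2 difference -6.43, SE 0.17, limma adjusted p = 1.89e-13). Ifit1 had 4739, 3609, 3400 and 4756 and then 66.3, 77.2, 55.5 and 75.5, a 60.1-fold fall. Ifit3 and its neighbour Ifit3b are near copies, with 97.4% of the Ifit3 transcript matched by Ifit3b at 97% identity or more, so reads could be shared between them.

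Irf7, the factor that amplifies interferon production, fell 60.6-fold, from 1360 ± 242 to 22.5 ± 8.13 normalized reads. Usp18, which switches off the interferon receptor, fell 72.3-fold, and Oasl2, an oligoadenylate synthetase-like protein, 124-fold. By day 7 Ifit1 stood at 2168, Irf7 at 1587 and Oasl2 at 4102 normalized reads. At day 0, 45 of the 52 genes were higher in replicates 1 and 4 than in replicates 2 and 3, an order that 14.9% of all genes had.

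The only ligand gene on the list of interferon ligands, receptors and sensors, Ifnb1, was at the floor, with 2 reads in 1 of the 8 libraries. The type I receptor gene Ifnar1 fell by 0.26 on the log2 scale, from 2803 ± 113 to 2327 ± 61.8 normalized reads, and the type II receptor gene Ifngr1 rose by 0.76. Among the sensors, Tlr3, which detects double-stranded RNA in endosomes, fell 5.88-fold and Sting1, the adaptor for cytosolic DNA, 2.87-fold. Of 15 tested genes for receptors, sensors and their signalling partners 8 were called lower, where 38.2% of all genes were, and 3 higher, where 38.3% were.

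The interferon-stimulated response element core, GAAANNGAA on either strand, was found in the 250 bases before 20 of 41 listed genes with a promoter (48.8%) and before 8.2% of all genes. Matches of one motif may overlap. Stretches are shown, with the core in capitals, for 2 of the genes that fell most and hold a match, and that of Ifit3b has the same letters as that of Ifit3. Oasl2, also among the largest falls, has no match in this window, and Usp18 has no entry in the promoter table. Isg15, a ubiquitin-like protein, was added after its value was seen. Ifit1 is from chr19:34640755-34640838 and Ifit3 from chr19:34583349-34583460, both on the plus strand, and Isg15 is from chr4:156200851-156200921 on the minus strand. Each lies upstream of the gene.
Ifit1: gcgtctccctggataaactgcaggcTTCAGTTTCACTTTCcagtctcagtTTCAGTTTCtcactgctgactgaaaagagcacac
Ifit3: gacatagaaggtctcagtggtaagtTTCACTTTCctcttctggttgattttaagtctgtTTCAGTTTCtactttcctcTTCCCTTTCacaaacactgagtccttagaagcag
Isg15: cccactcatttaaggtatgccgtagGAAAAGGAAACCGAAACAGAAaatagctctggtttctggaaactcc
Each of the 3 stretches holds 3 matches. Isg15 itself fell 23.0-fold, from 2407 to 3499 normalized reads at day 0 to 114 to 141 at day 3.

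Of 24 tested inflammatory genes that glucocorticoid is known to repress, 14 were called lower, where 38.2% of all genes were, and 8 higher, where 38.3% were. Of these, 10 fell and 6 rose by at least 1, and the list median was -0.48, or -0.30 with no filter on low values. The chemokine Cxcl5, which draws neutrophils, fell 15.4-fold, from 28400 ± 501 to 1847 ± 166 normalized reads, the monocyte chemokine Ccl2 fell 13.8-fold, and the gelatinase Mmp9 fell 25.6-fold. Others rose. The acute phase protein Saa3 rose 8.16-fold, from 1753 ± 92.6 to 14310 ± 1240 normalized reads. Il6 had 90.1 to 97.8 normalized reads at day 0 and 275 to 300 at day 3, and the growth factor Csf3 went from 8 reads to 323. Ptgs2, the inducible cyclooxygenase, differed by 0.42, a call lost in the fit of all 32 libraries (adjusted p = 0.069).

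Cholesterol synthesis and uptake genes fell, and the cholesterol exporters rose. Of 29 tested, 22 were called lower and 5 higher, beside 38.2% and 38.3% of all genes. Of the 22, 11 fell by at least 1, where 8.86% of all genes did, and the list median was -0.91. Hmgcs1, which makes the precursor of mevalonate, had 3672, 3769, 3416 and 3583 normalized reads at day 0 and 1827, 1671, 1842 and 1704 at day 3, a 2.05-fold fall (log2 difference -0.996, SE 0.04, limma adjusted p = 5.75e-21). The controlling factor Srebf2 fell 1.92-fold. Mylip, a ubiquitin ligase induced by the liver X receptor, fell 4.61-fold.

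Abca1 and Abcg1, which export cholesterol and are targets of the liver X receptor, rose from 916 ± 94.8 to 4481 ± 264 and from 31.7 ± 1.39 to 372 ± 19.7 normalized reads. The sterol response element TCACNCCAC, on either strand, stood before 1 of 21 listed genes with a promoter (4.8%) and 1.2% of all genes. That gene is Hmgcs1, and its stretch at chr13:119690189-119690247 on the plus strand is shown with the element in capitals.
Hmgcs1: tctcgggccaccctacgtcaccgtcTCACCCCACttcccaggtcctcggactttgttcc

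Actin-based contractile genes fell strongly. Of 31 tested contractile and SRF or YAP target genes, 25 were called lower and 4 higher, beside 38.2% and 38.3% of all genes. Of the 25, 17 fell by at least 1, where 8.86% of all genes did, and the list median was -1.09. Acta2 had 20670, 22200, 20600 and 20920 normalized reads at day 0 and 283, 257, 259 and 273 at day 3, a 78.8-fold fall (log2 difference -6.03, SE 0.07, limma adjusted p = 1.36e-24). Myl9 fell 136-fold, from 1900 ± 54.5 to 14.0 ± 6.31 normalized reads. Ccn2, a secreted target of YAP, went from 59.7 to 72.1 normalized reads to 0 to 4.25. Itga5, the fibronectin receptor subunit, was the largest exception and rose 5.21-fold, and Tagln2 rose 1.77-fold. At day 11 Acta2 was at 5344 normalized reads and had not returned to its day 0 level.

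The CArG box, the binding site of SRF, was found on either strand before 5 of 29 listed genes with a promoter (17.2%) and 1.6% of all genes. One of these was Myl9, at chr2:156775278-156775337 on the plus strand, shown with the box in capitals because it was among the largest falls.
Myl9: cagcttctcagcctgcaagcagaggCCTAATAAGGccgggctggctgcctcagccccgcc

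Col1a1, the main collagen of fibroblasts, had 113600, 125300, 118700 and 120400 normalized reads at day 0 and 23230, 24630, 24720 and 25690 at day 3, a 4.86-fold fall (log2 difference -2.22, SE 0.04, limma adjusted p = 1.15e-30). Col3a1 fell only by 0.41, Col12a1 fell 13.5-fold and Col8a1 20.3-fold. Col4a1, a chain of the basement membrane network, rose from 46500 to 48410 normalized reads to 176400 to 188800, a 3.85-fold rise (1.89, SE 0.03, adjusted p = 8.76e-32). Col18a1 and Col15a1 rose 6.23-fold and 6.41-fold, and the laminin chains Lamc1 4.93-fold and Lama5 8.01-fold. Not every basement membrane gene rose, since Col4a5 fell 6.91-fold and Smoc2 went from 526 reads to 3.

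Of 28 interstitial collagen genes and their enzymes, 15 were called higher and 13 lower, and of 19 basement membrane genes 10 and 7, beside 38.3% and 38.2% of all genes. Of 29 glycoproteins and proteoglycans, 21 were called lower and 6 higher, with a median of -0.67. Ogn, or osteoglycin, went from 4495 to 4688 normalized reads to 36.8 to 49.2, and Fmod, or fibromodulin, from 1188 to 1348 to 0 to 6.38. The large proteoglycan Vcan rose 4.67-fold and Tnn, a tenascin, 5.04-fold. Fn1, or fibronectin, fell by 0.36. Among proteases and inhibitors 14 of 27 were called lower and 12 higher, beside the same shares. Mmp23 fell 13.5-fold and the plasminogen activator Plat 9.30-fold, while the protease Adamts15 rose 13.3-fold.

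Of 37 DNA replication genes 24 were called higher and 3 lower, beside 38.3% and 38.2% of all genes. None differed by as much as 1, and the list median was 0.29. Rrm2, the small subunit of ribonucleotide reductase, rose 1.97-fold and the licensing factor Cdc6 1.91-fold, while the helicase subunit Mcm2 rose from 2987 ± 174 to 4229 ± 93.9 normalized reads (log2 difference 0.49, SE 0.05, limma adjusted p = 2.97e-11). The counts depend on scaling, with 18 higher, 9 lower and a median of 0.17 under equal totals. Day 3 had the highest mean of the 4 days in 28 of the 37 genes, beside 33.8% of all genes.

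Of 35 mitotic genes tested, 4 were called higher, where 38.3% of all genes were, and 15 lower, where 38.2% were. The other 16 were not called, and the list median was -0.16. The difference between the replication and mitotic lists was not tested. In the fit of all 32 libraries 1 was called higher and 11 lower, and under equal totals 2 and 20, with a median of -0.28. Top2a, the topoisomerase that untangles replicated chromosomes, rose 2.88-fold, from 2603 ± 185 to 7506 ± 524 normalized reads. The kinase Plk1 and the kinesin Kif23, both needed late in division, fell 2.53-fold and 2.79-fold. Mki67, the common marker of cycling cells, had 1362 to 1464 normalized reads at day 0 and 1199 to 1448 at day 3, and the groups overlapped. It was not called (log2 difference -0.07, adjusted p = 0.382), but was called lower under equal totals (-0.20, adjusted p = 0.017).

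The E2F motif, TTTCCCGC or TTTGGCGC on either strand, was found before 6 of 31 replication genes with a promoter (19.4%) and 1.5% of all genes. The cell cycle homology region TTTGAA was found before 11 of 29 mitotic genes (37.9%) and 18.3% of all genes. With the 50 bases after the start included, the mitotic count became 22 of 29 (75.9%, beside 20.2% of all genes) and the replication count 11 of 31. Cdc6 is shown from chr11:98907988-98908045 on the plus strand, within the gene and outside annotated exons, and Top2a from chr11:99024190-99024237 on the minus strand, just upstream of the gene. They are the named member of each list that rose and carries the motif.
Cdc6: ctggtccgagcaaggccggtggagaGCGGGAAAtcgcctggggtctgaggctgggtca
Top2a: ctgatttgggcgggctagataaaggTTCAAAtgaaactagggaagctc

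Among the G1 regulators Myc, which drives growth and ribosome production, rose 6.58-fold, from 1454 ± 113 to 9569 ± 223 normalized reads (log2 difference 2.63, SE 0.07, limma adjusted p = 1.75e-18). The D cyclins moved apart, with Ccnd3 rising 2.37-fold and Ccnd1 falling 2.25-fold. The CDK inhibitors Cdkn2a and Cdkn2b fell 2.76-fold and 2.84-fold and Cdkn1b (p27) 1.85-fold, while Cdkn1a (p21) fell by only 0.23. Cdkn1c did not enter the test and had 3 reads, all in 1 day 3 library.

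Genes that build ribosomes rose, with 30 of 32 tested biogenesis genes called higher and none lower, beside 38.3% and 38.2% of all genes. Of the 30, 20 rose by at least 1, where 5.48% of all genes did, and the list median was 1.10. Rrp12, which exports ribosomal subunits, rose 3.19-fold and Nop56, a core protein of box C/D particles, 3.06-fold, though 39.0% of the Nop56 transcript matches other genes. Day 3 had the highest mean of the 4 days in 31 of the 32, beside 33.8% of all genes. Of 38 ribosomal protein genes 36 were called higher, all by less than 1, with a median of 0.43. Rplp0 and Rplp1 rose 1.83-fold and 1.75-fold, but most of their transcripts match other genes or pseudogenes (70.3% and 99.4%), so reads could be shared.

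Genes of amino acid supply under Atf4 rose as well. Of 27 tested 25 were called higher and 1 lower, beside 38.3% and 38.2% of all genes. Of the 25, 11 rose by at least 1, where 5.48% of all genes did, and the list median was 0.95. Slc7a11, the cystine importer, rose 8.72-fold, from 227 ± 44.9 to 1977 ± 66.7 normalized reads, and Cth, which makes cysteine, 5.49-fold. Atf5 was the member called lower (-0.11), and that call was lost in the fit of all 32 libraries (adjusted p = 0.3). Nuclear genes of the respiratory chain were higher in 34 of 35 cases, 27 under equal totals, with a median of 0.36, or 0.23 under equal totals, and cytochrome c, Cycs, rose 3.30-fold, with 34.4% of its transcript matched by other genes. Among glycolytic and pyruvate genes 19 of 26 were called higher and 5 lower, beside the 38.3% and 38.2% of all genes. Pyruvate carboxylase, Pcx, which feeds carbon into lipid synthesis in fat cells, rose 5.97-fold, from 3753 ± 161 to 22420 ± 380 normalized reads.

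Clock genes rose in most cases, with 13 of 18 tested called higher, where 38.3% of all genes were. The 5 others were called lower, where 38.2% of all genes were, and the list median was 0.63. Nfil3, a repressor of clock output, rose 11.4-fold and Per2 4.91-fold. Dbp, an activator of clock output, fell 2.90-fold and the repressor Bhlhe41 3.31-fold. The labels give no hour of harvest, so phase and level cannot be told apart.

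The same comparison was made in the knockdown libraries, which share no library with the control comparison. Zbtb9 itself had 13.5 to 14.9 normalized reads in control cells at day 0 and 6.35 to 12.6 at day 3, and was not called (adjusted p = 0.253). Its means were 8.76 and 5.20 in knockdown cells, and since 84.4% of its exon bases are shared with other gene models, these low counts check the labels only weakly. In knockdown, 9484 of 13456 genes tested were called (70.5%). Of 1922 genes called in control with a difference of at least 1 and tested in knockdown, 1910 were called in the same direction in knockdown, 12 were not called and none was called in the opposite direction.

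The difference between the arms was called for 892 of 13571 genes (6.57%), and 2696 had an unadjusted p under 0.05. With the 2 shRNAs fitted as separate groups 2484 were called. Among the 1925 genes called with a difference of at least 1 in control, 233 were called in this test, 182 of them with a larger change in knockdown and 51 with a smaller one. Of these 892, 501 had a higher value in knockdown and 391 a lower one, a split that turned to 401 and 545 under equal totals. Among adipocyte lipid genes 24 of 37 tested were called, all with a higher value in knockdown, as were 24 under equal totals and 13 with voom on the rebuilt reads. Fabp4 went from 79.8 ± 17.3 to 10960 ± 1229 normalized reads in knockdown (SD, n = 4), a log2 difference 1.02 above that in control (SE 0.17, limma adjusted p = 0.00022). Cidec had 0 reads at day 0 and 730 ± 220 normalized reads at day 3 in knockdown, 2.05 above control. With voom on the rebuilt reads neither difference was called (Fabp4 1.07, adjusted p = 0.076, and Cidec 2.91, adjusted p = 0.35). The largest difference was that of Adgrf5, an adhesion receptor, at 2.65. It went from 10.4 ± 5.68 to 17.9 ± 7.59 normalized reads in control, where the groups overlapped and the call was lost under equal totals (adjusted p = 0.11) and without any 1 of 4 libraries (day 0 replicates 1 and 4, day 3 replicates 1 and 3, adjusted p from 0.065 to 0.11), and from 7.20 ± 4.80 to 183 ± 24.6 in knockdown.

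Cxcl10, an interferon-inducible chemokine, fell from 170 ± 33.5 to 51.4 ± 9.50 normalized reads in control and had means of 91.8 ± 31.9 and 192 ± 91.2 in knockdown, where its difference was not called (adjusted p = 0.089). Rasgef1b, an exchange factor for small G proteins, rose more in knockdown (1.91 above control), as did Ptgs2 (1.84). Of 27 tested Atf4 targets 12 were called higher in knockdown and none lower, beside 501 and 391 of all 13571 genes. With the 2 shRNAs fitted as separate groups 23 were called higher, beside 1362 of all 13571 genes. Of 31 contractile genes 9 were called lower, beside 391 of all 13571 genes, and none higher. That count was 13 under equal totals (545 of all 13571 genes) and 17 with separate shRNAs (1122 of all 13571 genes). It was 4 without either control day 0 replicate 1 or day 0 replicate 1 of the second shRNA. It ranged from 4 to 11 over all 16 libraries left out in turn, and was 5 without control day 3 replicate 2 or 4 or without day 0 replicate 2 of the second shRNA. It was 6 without control day 0 replicate 3 or 4, control day 3 replicate 3, day 3 replicate 2 of the first shRNA or day 3 replicate 1 of the second. Of the 52 interferon-stimulated genes tested, 49 were called lower in knockdown and 1, Isg20, higher, beside 4746 and 4738 of all 13456 genes. Isg20 was also the only one whose difference between the arms was called. With the 2 shRNAs fitted as separate groups 23 were called, all with a higher value in knockdown, where 1362 of all 13571 genes were called higher. Isg20 was named after its value was seen. Ifit1 fell from 3007 ± 1207 to 197 ± 107 in knockdown, and its difference between arms (1.61, SE 0.68) was not called (adjusted p = 0.178).

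**Figure D4:**
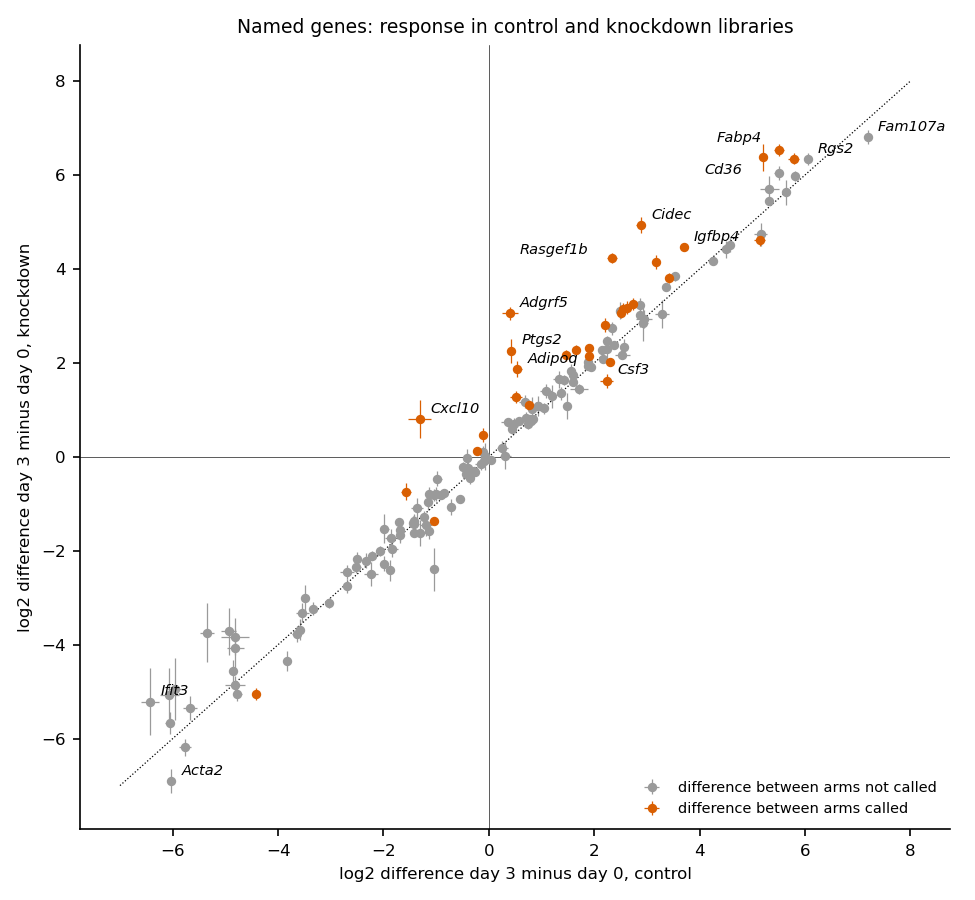
Log2 difference between day 3 and day 0 in control libraries (x axis) and in knockdown libraries (y axis) for 155 named genes, with standard errors from limma as bars and the line of equal change dotted. In orange are the 31 genes whose difference between the arms was called. Most points lie near the line, and Adgrf5, Cidec, Rasgef1b, Ptgs2 and Cxcl10 lie above it.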

How the data were processed

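RNA was prepared with RNeasy and TruSeq RNA kits, per the labels' protocols. The submitters' processing notes list TopHat2 2.1.0, Bowtie2 2.2.6, SAMtools 1.3.1 and HTSeq 0.6.1. The genome build, annotation, strand setting and transform are not given in the sources used here. The deposited table holds log2 values of 20560 genes (28 without a symbol), from -1.56 to 17.99, which behave like a regularized logarithm. Reads were rebuilt by inverting it, with the terms of the transform fitted so that reads came out whole. A further 995 genes had a term fitted to each gene. After this fitting 96.9% of values lay no more than 0.1 away from a whole number of reads. Values spread evenly and not fitted would give 20%. Cldn19, Col18a1, Col4a1, Fn1, Igf1, Lpl, Mt1, Nop56, Nr4a1, Rplp0, Rplp1, Slc2a1, Tagln2 and Vcan were not whole in every library. Intervals and floors cover counting error only, since reads carry no molecular identifiers.

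The deposited log2 values of 16 control libraries were fitted with limma 3.58.1 (R 4.3.3, trended and robust variance), keeping genes at 10 or more on the linear scale in at least 4 libraries. The knockdown comparison was fitted in the same way on the 16 knockdown libraries. The difference between the arms was fitted on all 32 libraries, with both shRNAs pooled within a day. Genes were called at a Benjamini-Hochberg adjusted p under 0.05. On simulated data 82.1% of genes changed 1.5-fold and 100% of those changed 2-fold were recovered, and 3.59% of calls were false, over 13354 genes. The simulation used libraries of days 0 and 3 only, a fixed dispersion and few changed genes (67 at 2-fold), none of them rare. Its values were not drawn towards the mean, so these rates do not carry over to the calls reported here. Shared sequence was measured with BLAST+ 2.17.0 on GENCODE transcripts, and exon overlap on the GENCODE annotation. Promoters come from RefSeq (GRCm38.p6), chromosome 18 not used.

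Named genes were the 12 largest rises and falls among called genes that did not overlap and reached a mean of 50, the 2 largest called rises and falls in each list, a list of genes taken whatever their values, the 5 largest differences between the arms, and the cell type markers. Members and lists were chosen with earlier results of these data known. Isg15, Isg20, Mt1, Sgk1 and Tgm2 were named after their values were seen. Some genes that the rule selects are not reported here.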

Additional observations from a re-analysis of the deposited data

Results flagged for a closer look

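In 17 of 285 groups of 4 control libraries (6.0%) a named gene had 1 library set apart from the other 3, by Dixon's criterion on its gap as a share of the group's range, where chance alone gives about 1 in 20. These were Abcg1 at 342.7 normalized reads in day 3 replicate 2, below the others at 379.5 to 385.1, and Birc5 at 355.6 normalized reads in day 0 replicate 3, above the others at 287.4 to 296.7. Next were Birc5 at 341.7 normalized reads in day 3 replicate 2, below the others at 405 to 407.1, and Ccnd1 at 12460 normalized reads in day 0 replicate 1, below the others at 13120 to 13230. The list goes on with Chaf1b at 322.1 normalized reads in day 3 replicate 4, above the others at 270 to 275, and Col18a1 at 31750 normalized reads in day 3 replicate 2, above the others at 30060 to 30270. It also holds Cryab at 3088 normalized reads in day 0 replicate 3, above the others at 2846 to 2883, and Cyc1 at 3637 normalized reads in day 3 replicate 4, below the others at 3990 to 4007. Further cases were Dlk1 at 88440 normalized reads in day 0 replicate 4, below the others at 96720 to 98270, and Fkbp5 at 1152 normalized reads in day 0 replicate 3, below the others at 1278 to 1303. Others were Klf15 at 34.54 normalized reads in day 3 replicate 3, above the others at 29.45 to 29.77, and Klf4 at 1496 normalized reads in day 0 replicate 1, below the others at 1638 to 1654. Then came Mki67 at 1362 normalized reads in day 0 replicate 1, below the others at 1453 to 1464. Also apart were Pde4b at 386.5 normalized reads in day 0 replicate 2, above the others at 337.4 to 344.4, and Pdk2 at 634.3 normalized reads in day 0 replicate 3, above the others at 534.6 to 549.5. The last were Srebf2 at 3630 normalized reads in day 3 replicate 1, below the others at 3858 to 3881, and Tlr3 at 808.9 normalized reads in day 0 replicate 3, below the others at 947.1 to 975.6.

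The response from day 0 to day 3 differed between the arms in 31 named genes, by limma's test of the difference itself, given as knockdown minus control on the log2 scale with the Benjamini-Hochberg adjusted p. The value was higher in knockdown for 26. The largest were Adgrf5 (2.65, adjusted p = 2.9e-09), Cxcl10 (2.11, adjusted p = 0.0078), Cidec (2.05, adjusted p = 1.1e-07), Rasgef1b (1.91, adjusted p = 3.1e-11), Ptgs2 (1.84, adjusted p = 0.00016) and Adipoq (1.33, adjusted p = 4.2e-05). Next came Cd36 (1.18, adjusted p = 0.022), Fabp4 (1.02, adjusted p = 0.00022), Plin1 (0.97, adjusted p = 0.00033), Bhlhe41 (0.83, adjusted p = 0.016) and Igfbp4 (0.77, adjusted p = 1.7e-05). Smaller differences were those of Slc2a4 (0.76, adjusted p = 0.0055), Cebpa (0.70, adjusted p = 0.0022), Cycs (0.63, adjusted p = 0.00074), Abca1 (0.61, adjusted p = 0.027) and Wnt4 (0.60, adjusted p = 0.025). Below these lay Lpl (0.58, adjusted p = 0.036), Serpina3k (0.56, adjusted p = 0.018), Pcx (0.55, adjusted p = 0.0018), Myc (0.55, adjusted p = 0.038) and Lama5 (0.52, adjusted p = 0.045). The smallest were Pparg (0.41, adjusted p = 0.0008), Tsc22d3 (0.38, adjusted p = 0.038), Cdkn1a (0.36, adjusted p = 0.0061), Ifngr1 (0.34, adjusted p = 0.002) and Klf9 (0.24, adjusted p = 0.038). It was lower in knockdown for Mmp9 (-0.63, adjusted p = 0.012), Csf3 (-0.61, adjusted p = 0.046), Cxcl13 (-0.52, adjusted p = 0.043), Rgs12 (-0.33, adjusted p = 0.034) and Itga5 (-0.30, adjusted p = 0.0075). Of the 31 calls, 11 (Abca1, Cd36, Csf3, Cxcl13, Klf9, Lama5, Lpl, Myc, Rgs12, Tsc22d3 and Wnt4) were lost on leaving out some single library, and each of the 16 libraries ended at least 2 of them. Without a filter 6 were lost, and under equal totals 3. With voom on the rebuilt reads 11 were lost, and Plin1 turned to -0.38 (adjusted p = 0.92).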

How the results depend on the processing

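The control comparison was refitted in 12 other ways besides leaving out libraries. A test against a log2 difference of 0.5 called 3615 genes, 1627 higher and 1988 lower. Genes called with a difference of at least 1 numbered 1925, and 2896 on log2 of rebuilt normalized reads plus 1 or 2982 with voom (the latter also changes the scaling). The median difference over all genes became -0.128 with voom and -0.125 under equal totals, and calls split into 4118 higher and 6150 lower with voom. In the test between arms the split was 356 and 540 with voom, and fitting the shRNAs as 2 groups called 2484 genes, 1362 higher and 1122 lower. Plin1 turned to -0.38 between arms with voom (adjusted p = 0.92). With 1 library left out, control calls ranged from 9973 to 10105, 4987 to 5055 of them higher, 4986 to 5050 lower and 1892 to 1939 of at least 1, and calls between arms from 665 to 875. Among 155 named genes, 6 (Adgrf5, Atf5, Lpl, Pde3b, Rpl15 and Slc2a1) lost their control call in some such fit. The replicate block called 10267 genes and changed no call of a named gene. Same-numbered libraries correlated at 0.029 to 0.041, and each correlated best with its own number, a hint from the data and not from the design. The deposited differences of genes with few reads are drawn towards 0 and understate their size.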
